A study of Homo sapiens with 2 samples.

Results

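A set of 8 genes of the collagen matrix was followed in Hep3B cells: the collagens COL2A1, COL5A2 and COL4A5, the collagen-modifying enzyme LEPREL1, the matrix regulators TIMP3, EFEMP1 and SERPINE2, and the collagen-binding integrin subunit ITGA2. These cells are an established line derived from a human liver cancer. For each group 1 Affymetrix HG-U133 Plus 2.0 array was run with total RNA: on cells with a hairpin that knocks down Cav1, the gene of caveolin-1 (shCav1), and on cells with a non-target hairpin (shCtl). Both were grown in DMEM-HG. The labels do not say whether either line is a clone or a pool. The genes were taken by symbol from the authors' deposited tables of probe sets at least 2-fold higher or lower in shCav1, which hold 244 probe sets and name 190 genes by a single symbol. The 8 genes account for 11 of these probe sets, and all 11 are given here. The members were chosen by their difference between these arrays, so the differences are a description with no test. With 1 array per group there is no replicate check, no p-value is given, and an effect of lower caveolin-1 cannot be told apart from any other difference between the samples. In bulk RNA a change in the number of cells that make a transcript and a change in transcript per cell cannot be told apart.

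Collagens are secreted as triple helices whose chains repeat a glycine at a fixed spacing. Fibrillar collagens such as types II and V assemble into fibres, and type IV collagen forms the sheet-like network of basement membranes. Before secretion, chains are hydroxylated in the endoplasmic reticulum by enzymes such as LEPREL1. Outside the cell, matrix turnover is set by proteases and their inhibitors, and cells grip collagen through integrins made of an alpha and a beta chain. In the liver most fibrillar collagen is laid down by stellate cells and fibroblasts, while hepatocytes secrete mainly plasma proteins.

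All 3 collagen genes, LEPREL1, TIMP3 and EFEMP1 had higher signal in shCav1, and SERPINE2 and ITGA2 had lower signal. This gave 6 genes and 9 probe sets that were at least 2-fold higher, and 2 genes with 1 probe set each that were at least 2-fold lower. Among the 28128 probe sets of the array bright enough to be kept (linear signal of at least 30.7, the median of all values, on at least 1 array), 0.501% were at least 2-fold higher and 0.299% at least 2-fold lower. After centring on added hybridization spikes that balance turned round, to 0.363% higher and 0.505% lower. The same differences picked the genes, so nothing is read from their counts. All 11 probe sets passed the brightness filter, 3 of them only through the shCav1 array. The median log2 difference was 1.58 over the 6 higher genes, against 1.26 over all 114 higher genes that were named and kept, and it was -1.17 over the 2 lower genes and -1.18 over all 62 lower ones. With a pseudocount of 16 added to both signals these medians were 1.21 against 1.06 and -1.15 against -1.07. They describe genes picked by the same differences and support nothing. Over all kept probe sets the median was -0.0067, with a robust SD of 0.21. The hairpin's target CAV1, the main coat protein gene of caveolae, was at 6.61% and 7.38% of its shCtl signal at its listed probe sets.

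**Figure D1:**
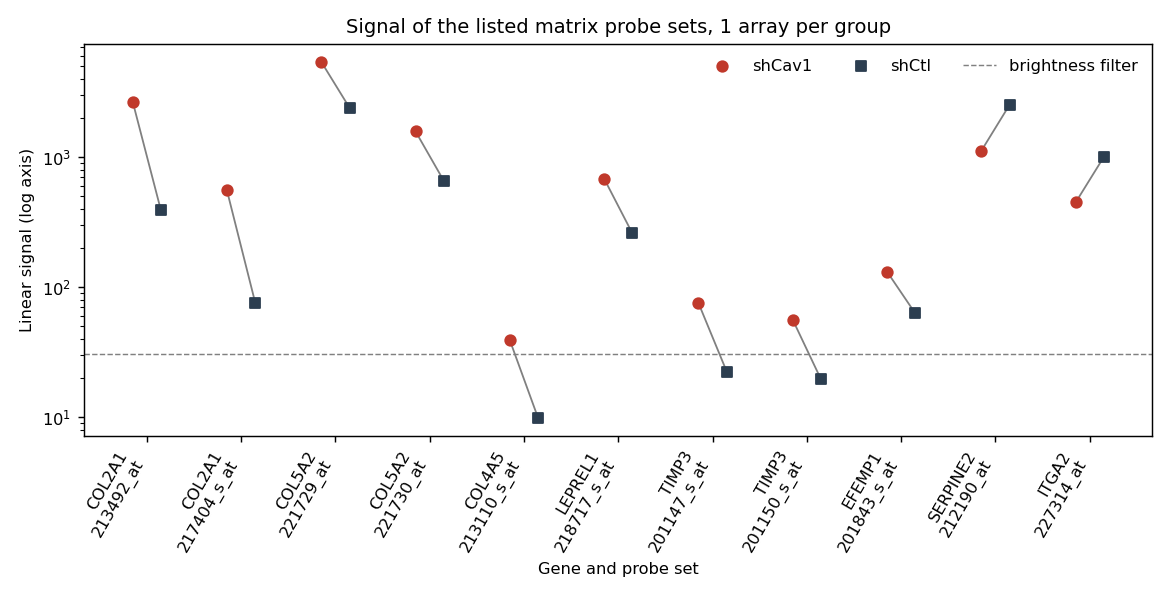
Linear signal (log axis) of the 11 listed probe sets on the shCav1 array (red circles) and the shCtl array (dark squares), 1 array per group, with a line joining both values of a probe set. The 9 probe sets of COL2A1, COL5A2, COL4A5, LEPREL1, TIMP3 and EFEMP1 slope down to shCtl and those of SERPINE2 and ITGA2 slope up; COL4A5 and both TIMP3 probe sets lie under the dashed brightness filter of 30.7 on the shCtl array only.

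COL2A1 encodes the chain of type II collagen, the main fibrillar collagen of cartilage. At probe set 213492_at its signal was 2682 in shCav1 and 391 in shCtl, a log2 difference of 2.78. At probe set 217404_s_at it was 556 in shCav1 and 76.2 in shCtl, a log2 difference of 2.87. Both probe sets were well above the brightness filter on both arrays, and COL2A1 ranked 8 among the 114 higher genes. Its folds were 6.86 and 7.30, the same as in the authors' deposited table. The probe sets align to the minus strand of chromosome 12, from 48366749 to 48398104 for the first and from 48367189 for the second. All positions of probe sets are those of the deposited alignments, and their genome build is not stated by the labels or the file headers. Different probe sets of a gene can share the same alignment, so these positions do not tell where the single probes lie. The listed genes nearest to COL2A1 in log2 difference were MUM1L1 with 2.74 and CHODL, a lectin gene, with 2.91. With 1 array per group this nearness is in a single number and not in a pattern over samples.

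COL5A2 encodes the alpha-2 chain of type V collagen, a minor fibrillar collagen that starts and limits fibre growth. Its signal at 221729_at was 5420.0 in shCav1 and 2402 in shCtl, a log2 difference of 1.17. At 221730_at it was 1581 in shCav1 and 659 in shCtl, a log2 difference of 1.26. The probe sets thus gave 2.26-fold and 2.40-fold, and both share the alignment at 189896621 to 190044597 on the minus strand of chromosome 2. In log2 terms the COL5A2 difference was under that of COL2A1 at either pair of probe sets.

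COL4A5 encodes the alpha-5 chain of type IV collagen, a basement membrane chain. Its 1 listed probe set, 213110_s_at, had a signal of 39.2 in shCav1 and 9.88 in shCtl, a log2 difference of 1.99 or 3.96-fold. The shCtl signal was below the brightness filter, and with a pseudocount of 16 added to both signals the log2 difference was 1.09. The size of the COL4A5 difference is therefore less certain than that of the brighter collagens. The probe set aligns to 107683355 to 107940774 on the plus strand of chromosome X. VSIG1, a membrane protein gene with 3 protein-coding genes between it and COL4A5 in the gene order of GRCh38.p14, was also higher, with 152 in shCav1 and 19.0 in shCtl. Its shCtl signal was below the brightness filter too, and its log2 difference was 3.004, or 2.27 with the pseudocount. COL4A6, the gene directly beside COL4A5, was not among the listed genes, nor was COL3A1, the neighbour of COL5A2.

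LEPREL1, named P3H2 in RefSeq, encodes a prolyl 3-hydroxylase that modifies collagen chains, type IV among them. Its signal at 218717_s_at was 685 in shCav1 and 259.7 in shCtl, a log2 difference of 1.40 or 2.64-fold. Both values were far above the brightness filter. The probe set aligns to 189674621 to 189838109 on the minus strand of chromosome 3. IL1RAP, an accessory chain of the interleukin-1 receptor, has 3 protein-coding genes between it and LEPREL1 and had a log2 difference of 1.04. Listed genes with at most 5 protein-coding genes between them and a member were sought for all 8 members. Only VSIG1 and IL1RAP were found, and none beside the other members.

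TIMP3 encodes a metalloproteinase inhibitor that stays bound to the matrix. Its signal at 201147_s_at was 75.8 in shCav1 and 22.5 in shCtl, a log2 difference of 1.75. At 201150_s_at it was 56.3 in shCav1 and 19.6 in shCtl, a log2 difference of 1.52. Both shCtl values were below the brightness filter, and adding 16 to both signals brought the log2 differences to 1.25 and 1.02. Of the 3 genes with a pair of listed probe sets, TIMP3 had the widest spread between them, 0.16 (SD on the log2 scale), against 0.063 for COL2A1 and 0.063 for COL5A2. It is a spread within 1 pair of arrays and not between samples, its cause was not tested, and 0.16 was also the median over the 23 listed genes with more than 1 listed probe set. The TIMP3 probe sets align from 33196807 to 33259030 and 33259027 on the plus strand of chromosome 22.

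EFEMP1 encodes fibulin-3, a secreted glycoprotein of basement membranes and elastic tissue. Its signal at 201843_s_at was 132 in shCav1 and 63.0 in shCtl, a log2 difference of 1.07 or 2.10-fold. It was the member closest to the 2-fold limit. With 16 added to both signals its log2 difference was 0.91, and it was 0.93 after centring on the hybridization spikes, in both cases under 2-fold. The probe set aligns to 56093097 to 56150178 on the minus strand of chromosome 2.

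SERPINE2 encodes protease nexin-1, a secreted inhibitor of thrombin, urokinase and plasmin. Its signal at 212190_at was 1120.0 in shCav1 and 2532 in shCtl, a log2 difference of -1.18, or 44.2% of the shCtl signal. SERPINE2 and TIMP3, both protease inhibitors, thus differed in opposite directions. The probe set aligns to 224839865 to 224904323 on the minus strand of chromosome 2.

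ITGA2 encodes the alpha-2 integrin chain, which pairs with the beta-1 chain to bind collagen and laminin. Its signal at 227314_at was 449 in shCav1 and 1007 in shCtl, a log2 difference of -1.17, or 44.6% of the shCtl signal. The lower ITGA2 signal stood beside higher signal of the 3 collagen genes picked here, and a relation between them was not tested. The probe set aligns to 1905 bases, from 52388509 to 52390413 on the plus strand of chromosome 5, with 66.26% of its target aligned, while the alignments of the other members span 30916 to 257420 bases. ITGA1, a collagen-binding alpha chain whose gene lies close to ITGA2, was not among the listed genes. The listed genes nearest in log2 difference were VANGL1, a planar polarity gene, with -1.17 and ATL3, a gene of endoplasmic reticulum shape, with -1.16.

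**Figure D2:**
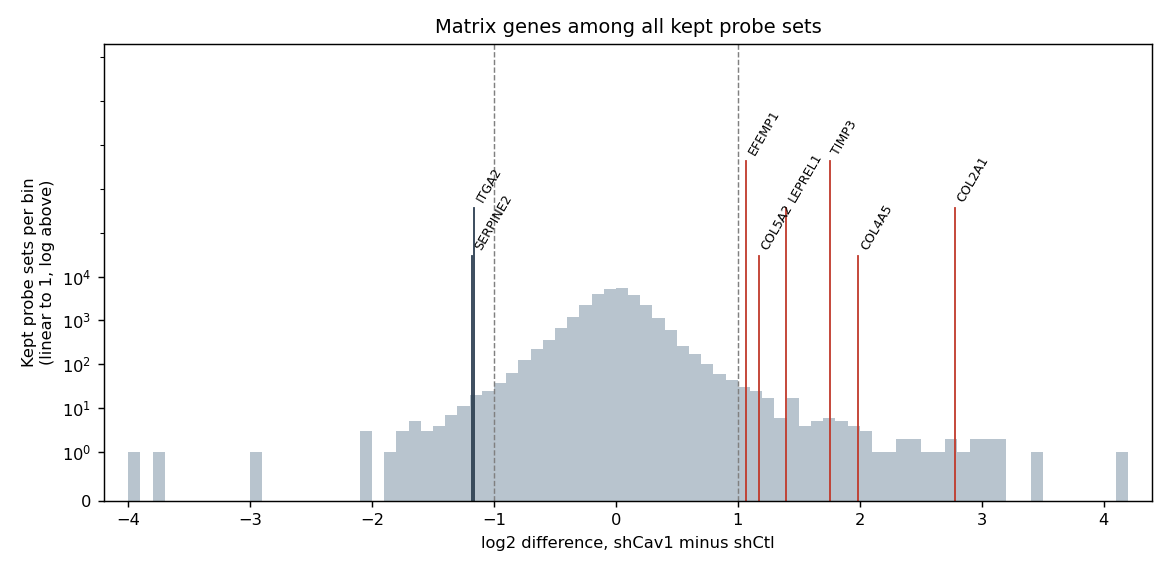
Number of kept probe sets (28128 in all; axis linear to 1 and logarithmic above) per 0.1 of log2 difference, shCav1 minus shCtl, with lines at the brightest listed probe set of each matrix gene and dashes at 2-fold. COL2A1 at 2.78 lies far out in the upper tail, while EFEMP1 at 1.07, COL5A2 at 1.17, SERPINE2 at -1.18 and ITGA2 at -1.17 lie just past the limit.

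The limit cuts through a continuous distribution. Just inside it stood EFEMP1 at 1.07, ITGA2 at -1.17, COL5A2 at 1.17 and SERPINE2 at -1.18. Just outside it stood unnamed probe sets at 0.999999 and -0.999998, and 69 kept probe sets in each direction lay between 1.8-fold and 2-fold. Any further probe sets of the 8 genes that did not reach 2-fold have no gene name here, so agreement between probe sets of a gene is partly set by the selection. The members also differed in brightness. COL5A2, LEPREL1, SERPINE2, ITGA2 and the brighter COL2A1 probe set were in the brightest 25% of the kept probe sets by mean log2 signal, where 0.327% were at least 2-fold higher, 0.156% at least 2-fold lower and the robust SD was 0.17. The other COL2A1 probe set was in the next 25%, with 0.469% higher and 0.327% lower, and EFEMP1 in the one below, with 0.54% higher and 0.398% lower. COL4A5 and TIMP3 were in the dimmest 25%, where 0.668% were higher, 0.313% lower and the robust SD was 0.22.

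The stretch upstream of the start site is shown for the higher and the lower genes because they differed in opposite directions. Entries in the RefSeq promoter table of GRCh38.p14 matched 5 of the 8 genes (COL4A5, LEPREL1, TIMP3, SERPINE2 and ITGA2). The 250 bases before the annotated start are printed 5′ to 3′ on the gene's strand for the 2 higher genes with the largest log2 difference among these and for both lower genes. Capitals mark a CCAAT box (CCAAT) or a GC box (GGGCGG) on either strand. The regions are chrX:108439588-108439837 on the plus strand for COL4A5, chr22:32801455-32801704 on the plus strand for TIMP3, chr2:224031479-224031728 on the minus strand for SERPINE2 and chr5:52989102-52989351 on the plus strand for ITGA2.
COL4A5: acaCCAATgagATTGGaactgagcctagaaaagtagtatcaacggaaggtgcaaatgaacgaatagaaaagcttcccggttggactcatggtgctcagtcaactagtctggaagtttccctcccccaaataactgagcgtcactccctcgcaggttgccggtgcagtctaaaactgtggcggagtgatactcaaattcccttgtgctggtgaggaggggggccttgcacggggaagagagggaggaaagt
TIMP3: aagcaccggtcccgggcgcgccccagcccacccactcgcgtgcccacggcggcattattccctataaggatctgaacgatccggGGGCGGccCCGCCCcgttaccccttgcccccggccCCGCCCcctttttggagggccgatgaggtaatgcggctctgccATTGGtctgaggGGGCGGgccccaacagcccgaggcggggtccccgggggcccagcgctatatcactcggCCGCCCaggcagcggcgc
SERPINE2: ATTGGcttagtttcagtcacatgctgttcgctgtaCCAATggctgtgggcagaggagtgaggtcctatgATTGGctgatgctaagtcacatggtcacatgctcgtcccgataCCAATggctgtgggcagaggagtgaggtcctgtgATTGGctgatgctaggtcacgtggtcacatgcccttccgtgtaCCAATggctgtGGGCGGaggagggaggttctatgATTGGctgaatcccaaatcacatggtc
ITGA2: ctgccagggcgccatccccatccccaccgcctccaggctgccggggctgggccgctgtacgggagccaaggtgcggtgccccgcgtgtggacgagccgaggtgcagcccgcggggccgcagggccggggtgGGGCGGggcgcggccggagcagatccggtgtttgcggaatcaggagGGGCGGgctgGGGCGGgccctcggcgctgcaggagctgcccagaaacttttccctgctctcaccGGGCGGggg

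GC-rich stretches were found on both sides. TIMP3, which was higher, and ITGA2, which was lower, were both rich in G and C (72.4% and 76.4%, against a median of 58.0% over 27305 promoters) and held 5 and 4 GC boxes. At least 1 GC box was present in 42.3% of these promoters, 7.82% held 4 or more and 4.20% held 5 or more. SERPINE2 held 1 GC box. COL4A5 held 2 CCAAT boxes and no GC box, LEPREL1 held 1 CCAAT box, and 33.0% of all promoters held at least 1. SERPINE2 held 7 CCAAT boxes, a number reached by 0.022% of all promoters. Its upstream stretch repeats itself: shifted by 77 bases, 127 of 173 bases were equal (73.4%). Neither a TATA box (TATAAA, in 11.1% of promoters) nor an AP-1 site (TGANTCA, in 6.60%) was found in any of the 5 windows. Every motif was searched on both strands, no match of one motif overlapped one of another, and a match is a description of letters and not of binding.

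**Figure D3:**
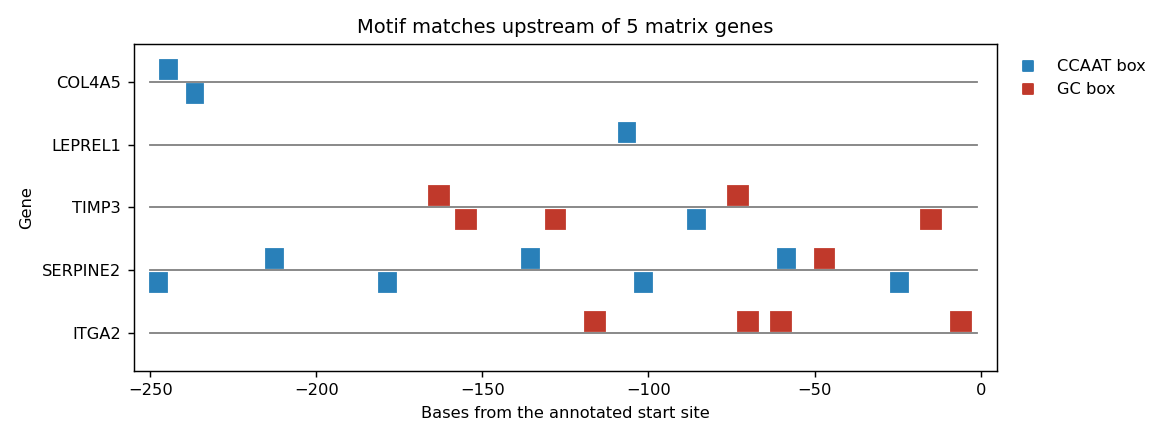
Positions of CCAAT box (blue) and GC box (red) matches in the 250 bases before the annotated start of 5 matrix genes, drawn above the line for the gene's strand and below it for the opposite strand. SERPINE2 has 7 CCAAT boxes spread over the window, and the GC boxes of TIMP3 and ITGA2, which differed in opposite directions, number 5 and 4.

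The rest of the matrix machinery was read from 12 gene lists with 165 genes, of which 10 were listed past 2-fold, the 8 genes above and 2 more. The 8 were picked for their difference, so nothing is read from these counts. Over the array 0.501% of kept probe sets were past 2-fold higher and 0.299% past 2-fold lower, a share of probe sets and not of genes. The fibrillar collagens gave 2 of 11 (COL2A1 and COL5A2), the network and basement membrane collagens 1 of 13 (COL4A5), and the collagen-modifying and processing enzymes 1 of 25 (LEPREL1), all higher. The metalloproteinase inhibitors gave 2 of 6, both higher, which were TIMP3 and A2M, the broad protease trap alpha-2-macroglobulin. A2M had a signal of 1691 in shCav1 and 677 in shCtl, a log2 difference of 1.32. The fibulins and elastic fibre proteins gave 1 of 16 (EFEMP1, higher) and the plasminogen system and its serpins 1 of 10 (SERPINE2, lower). The collagen-binding receptors gave 1 of 9 (ITGA2, lower) and the other integrin subunits 1 of 17, which was ITGAL, the leukocyte integrin alpha-L chain. ITGAL had 11.4 in shCav1 and 26.6 in shCtl, both under the brightness filter, with a log2 difference of -1.22. No gene was listed among 14 matrix metalloproteinases, 14 basement membrane proteins, 19 proteoglycans and matricellular proteins and 11 fibril-associated and transmembrane collagens. These counts depend on what the lists hold. GPC5, a proteoglycan gene listed as higher, is on none of them. COL2A1, COL4A5 and TIMP3, which the deposited annotation places in the basement membrane, are counted in other lists. Probe sets under 2-fold have no gene name here, so smaller differences in these lists were not seen. Only genes listed by a single symbol were searched, here and for the gene neighbours and the cell type markers. Any listed probe set with several symbols or none was left out.

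The deposited annotation groups the members in a way the selection partly fixed. The genes counted below include members, which were picked by their difference, so nothing is read from their balance of directions. Of the 190 genes listed by a single symbol, 122 were higher and 68 lower. The term proteinaceous extracellular matrix was held by 7 of these genes, 5 of them members, all 7 higher and 0 lower. They were COL2A1, COL5A2, COL4A5, TIMP3 and EFEMP1, together with GPC5, a cell surface proteoglycan, and WNT2B, a secreted signal. GPC5 had a signal of 15.6 in shCav1 and 7.59 in shCtl, and WNT2B 21.3 in shCav1 and 9.52 in shCtl, so both were under the brightness filter on both arrays. LEPREL1 was annotated to neither this term nor the extracellular region. Its annotation names the endoplasmic reticulum and the Golgi apparatus. The related term extracellular matrix was held by 4 higher genes (COL2A1, COL5A2, TIMP3 and EFEMP1) and 1 lower gene, SERPINE2. SERPINE2 also carried the extracellular region term and was 1 of 3 lower genes with it, against 28 higher ones.

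The marker lists used for other cell types gave no listed gene. None of 12 chondrocyte markers, of 12 markers of stellate cells and fibroblasts and of 7 endothelial markers was listed in either direction. COL2A1, the cartilage collagen gene that was listed as higher, was not on the chondrocyte list, so that count leaves it out. COL5A2, a fibrillar collagen gene listed as higher, was likewise not on the list for stellate cells and fibroblasts. Of 12 hepatocyte markers FGG, the fibrinogen gamma chain, was listed, with 944 in shCav1 and 263 in shCtl. Over the array 0.501% of kept probe sets were past 2-fold higher and 0.299% past 2-fold lower, a share of probe sets. Lists this short are likely to hold few or no listed genes at such shares, so nothing is read from the marker counts. The levels of the unlisted markers cannot be named here, so the Hep3B label was not checked against them, and the part of other cells in the collagen differences was not tested. The control probe sets for beta-actin (AFFX-HSAC07/X00351) differed by -0.88 on the log2 scale at the 5′ end and by -0.22 at the 3′ end, and those for GAPDH (AFFX-HUMGAPDH/M33197) -0.24 and -0.05. The part of this end difference in the values of the 8 genes was not tested.

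**Figure D4:**
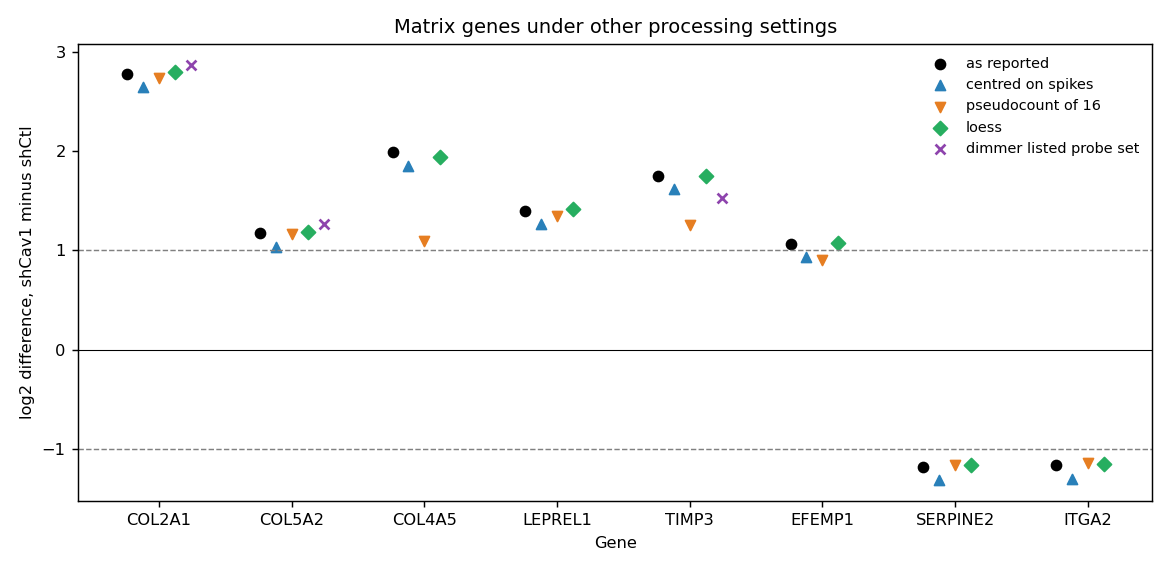
The log2 difference, shCav1 minus shCtl, of each matrix gene as reported (black circles) and under 4 other settings, with dashes at 2-fold. COL2A1 stays between 2.64 and 2.87, COL4A5 drops to 1.09 and TIMP3 to 1.25 under the pseudocount, and EFEMP1 falls under the limit at 0.91 and 0.93.

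The level of the arrays against each other was checked on added spikes. The 18 probe sets of the hybridization spikes ran from 0.07 to 0.25 in log2 difference, with a median of 0.14, all higher in shCav1. After centring on them COL5A2 was at 1.04, still past 2-fold, SERPINE2 at -1.31 and ITGA2 at -1.30. None of the 8 genes changed direction under the centring, loess, pseudocount, filter or probe set settings tried. A pseudocount or a filter cannot change a sign, and the listed probe sets of each member had the same direction. The centring shifts were small beside the 2-fold limit that picked the genes, so this outcome was largely fixed beforehand.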

How the data were processed

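RNA levels of 2 Hep3B samples, grouped by their titles, were measured on 1 array each. RMA is named, with no version, per the submitters' processing notes. The series values were deposited as log2 values with each probe set's mean over the samples already subtracted by the authors, so they give the shCav1 minus shCtl difference and no level. The authors' deposited tables give the same log2 difference within 1e-05 and a linear fold for 244 probe sets, with gene symbols and alignments. The shCtl level is the linear signal intensity deposited in a further table, and the shCav1 level was computed as that signal times the fold. The column not used there (1) has a name that matches no label. No detection call was used.

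The 62 control probe sets were left out, and a probe set was kept when its higher array reached 30.7. A gene's representative was its brightest listed, kept probe set. No test was run. Counting was tested on simulated data with the same noise at every brightness. Changes were planted only in probe sets at or above the filter in shCtl, so the test does not cover COL4A5 and TIMP3. The named genes are the 8 members, CAV1, every listed gene of the lists, and the 2 listed genes nearest to COL2A1 and to ITGA2. VSIG1, IL1RAP, GPC5 and WNT2B were named after their values were seen. Alternatives were median, spike and loess (span 0.3) centring, a pseudocount of 16, limits of 1.5-fold and 3-fold, other filters and other probe sets. Members and lists were chosen with earlier results of these data known. Python 3.11.15, pandas 2.3.3 and statsmodels 0.14.6 were used.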

Additional observations from a re-analysis of the deposited data

How the results depend on the processing

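The 6 higher and 2 lower matrix genes kept their direction under all settings run for them. The choice of genes past 2-fold and the kind of settings largely fixed this beforehand, so it is no support. Of 56 values of single genes under other settings, 53 moved by less than the robust SD of 0.21. Many of these were bound to: a filter or leaving out _s_at probe sets keeps a remaining value as it is. Spike centring moves every value by the same 0.14, and median centring by less. The 3 that moved by more were COL4A5 at 1.09 and TIMP3 at 1.25 under a pseudocount of 16, and TIMP3 at 1.52 at its dimmer probe set. The higher count was 5 after spike centring and under the pseudocount, in both cases without EFEMP1, and 4 with a filter at the 75th percentile, which removes COL4A5 and TIMP3. A 3-fold limit gave 3 higher and 0 lower genes. Without _s_at probe sets, whose probes can match several transcripts, 2 higher genes were left (COL2A1 and COL5A2), because the other 4 have no other kind listed, and both lower genes remained. Over the kept probe sets of the array, 141 were higher and 84 lower as reported, and 102 and 142 after spike centring and 91 and 49 under the pseudocount. No paired analysis was possible because neither shCav1 nor shCtl has a second sample. Low signal over background most affects COL4A5 and TIMP3.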
